A study of Mus musculus with 2 samples.

Results

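The distal array of the imprinted Dlk1-Dio3 locus is a row of microRNA genes on the plus strand of mouse chromosome 12, running from Mir379 to Mir3072. Its members were taken by position alone, as every microRNA gene of GENCODE M21 (mm10) on that strand from the start of Mir379 at 109709060 to the end of Mir3072 at 109747960. This gave 39 of the 2202 microRNA genes in the count tables. The rest of the locus here means the 22 microRNA genes upstream of the array on either strand, from Mir1906-1 to Mir882. Genes downstream of the array were not part of it. Reads were counted in 2 libraries of 1 group, wild-type control female mice of strain B6NCrl from the MODEL-AD programme. The tissue was labelled as a layer of the hippocampus, the brain region of memory formation, with no layer named, and the RNA sequenced was below 30 nt. The labels give no value for age, and the sex stands only in their free text. No allele, transgene or agent is named. Replicates 1 and 2 differ in biosample record but name the same donor, and nothing says whether they came from separate animals, so their spread may be technical. Their adapter-trimming documents differ, so library preparation and biosample cannot be told apart. With no second group, comparisons were made among genes or between the 2 libraries, and the p-values cover counting error only.

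Replicate 1 held 6713867 counts on the sense strand of microRNA genes and replicate 2 held 5901107, which were 42.5% and 41.3% of all reads. Reads that mapped to several places, 43.9% and 45.9%, were given to no gene. Levels are in CPM, the part of a library's sense counts that fell on a gene, with every library brought to the same sum. Tests used the 466 genes that averaged at least 10 counts, and over these the libraries differed by far more than sampling noise, with a chi-square of 1385 per degree of freedom.

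The locus carries protein-coding genes expressed from the paternal chromosome and long non-coding RNAs with embedded microRNAs expressed from the maternal chromosome. The array is thought to be made as long transcripts from which Drosha cuts hairpins, and Dicer then cuts each hairpin to a mature microRNA from its 5p or 3p arm. A mature microRNA finds its target messages mainly by its seed, bases 2 to 8 from the 5′ end. In neurons, transcription of the array responds to activity through Mef2, and several members act on dendrites and synapses.

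The array spanned 38.901 kb. Neighbouring hairpins were separated by a median of 556 bases. The gap was smallest between Mir679 and Mir1193, at 20 bases, and largest between Mir544 and Mir382, at 4368 bases. The last 14 members, from Mir382 to Mir3072, lay inside Mirg, an annotated long non-coding RNA gene at 109729764 to 109749460, and the 25 from Mir379 to Mir544 lay before it in no annotated host. Mir134, Mir485, Mir377 and Mir410 lay whole in a Mirg exon. Mir382, Mir668, Mir412, Mir369 and Mir3072 overlapped an exon in part, and Mir453, Mir154, Mir496a, Mir541 and Mir409 were intronic.

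The sequence table, from RefSeq on GRCm38.p6, held 71 mature sequences for 38 of the members. The counts below are per hairpin and do not say which arm was read. For the most abundant members these mature sequences are shown because their seeds, in capitals, differ from each other except in the 3p arms of Mir379 and Mir411.
miR-382-5p: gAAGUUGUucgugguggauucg
miR-382-3p: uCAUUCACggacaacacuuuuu
miR-541-5p: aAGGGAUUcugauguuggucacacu
miR-411-5p: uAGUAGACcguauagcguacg
miR-411-3p: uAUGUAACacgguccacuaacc
miR-379-5p: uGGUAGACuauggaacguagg
miR-379-3p: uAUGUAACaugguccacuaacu
miR-487b-5p: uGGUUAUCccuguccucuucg
miR-485-3p: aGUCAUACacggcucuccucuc
miR-409-3p: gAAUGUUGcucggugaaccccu
miR-154-3p: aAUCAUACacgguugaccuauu
miR-668-3p: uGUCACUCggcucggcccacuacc

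Both arms were listed for 33 members. Mir376c, Mir487b, Mir539, Mir485 and Mir453 had 1 listed mature sequence each, and Gm27379 had none. Seeds of arms that were not listed could not be compared, so shared seeds may be undercounted. Among the listed sequences of the array 65 different seeds were found. Only 6 of them occurred in 2 member sequences, and each of these 6 was in no other of the 1738 mouse mature sequences of the table. The pairs were miR-379-3p with miR-411-3p, miR-379-5p with miR-1193-5p, miR-1197-5p with miR-758-5p, miR-453 with miR-496a-5p, miR-494-5p with miR-410-5p, and miR-376c-5p with miR-376b-5p. Of the 71 mature sequences, 48 had a seed found in no other sequence of the table, inside or outside the array.

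Some members were near copies of each other, and these are shown because reads from them are separated by few bases (seed in capitals).
miR-376b-5p: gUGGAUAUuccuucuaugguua
miR-376c-5p: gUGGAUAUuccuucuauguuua
miR-376b-3p: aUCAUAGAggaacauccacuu
miR-376a-3p: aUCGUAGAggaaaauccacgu
miR-300-3p: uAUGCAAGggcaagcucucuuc
miR-381-3p: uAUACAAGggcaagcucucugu
With positions counted from 1 at the 5′ end, miR-376c-5p and miR-376b-5p differed by U19G, and miR-379-3p and miR-411-3p by U10C and U22C. Between miR-376b-3p and miR-376a-3p the substitutions were A4G, C13A and U20G. Between miR-300-3p and miR-381-3p they were G4A, U21G and C22U. Both of the last pairs therefore had different seeds.

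A read from a stretch that 2 hairpins share maps to both and is lost to both. Stretches of 18 or more bases shared with another annotated hairpin were found in 6 of the 39 members (15.4%), against 1143 of all 2202 genes (51.9%). They were Mir376b and Mir376c (31 shared bases), Mir411 and Mir758 (21), Mir299a with Mir299b (21), and Mir487b with Mir376b (20). The shared stretch of Mir299a lay within a mature sequence, miR-299a-5p. No listed mature sequence of a member was found whole in another annotated hairpin.

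Many hairpins of the array also shared short words, and 3 that hold both at their ends are shown with those words in capitals.
Mir411: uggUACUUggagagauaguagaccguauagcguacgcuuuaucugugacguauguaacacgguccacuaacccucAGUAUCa
Mir494: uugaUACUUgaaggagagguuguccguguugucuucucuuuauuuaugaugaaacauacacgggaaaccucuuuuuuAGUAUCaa
Mir369: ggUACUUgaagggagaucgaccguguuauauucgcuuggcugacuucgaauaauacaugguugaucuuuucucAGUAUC
They lie on the plus strand at chr12:109710175-109710256, chr12:109715318-109715402 and chr12:109743418-109743496 (GRCm38.p6). The words were picked after these sequences had been seen and were searched on the hairpin's own strand. UACUU was in 14 of 39 members (35.9%) and in 122 of all 2202 hairpins (5.54%), both counted anywhere in the hairpin. It began within the first 5 bases in 10 of the 14 members, and lay further in for Mir380, Mir1197, Mir453 and Mir412. AGUAUC was in 7 members (17.9%) and in 41 of all hairpins (1.86%). Both words were in Mir411, Mir494, Mir487b and Mir369, which is 10.3% of the array, against 0.272% of all hairpins. These are matches of letters and not known sites.

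The array as a whole held 315122 counts in replicate 1 and 205731 in replicate 2, a level of 46936 and 34863 CPM. Its mean level was 40900 ± 8537 CPM (SD, n = 2), and it held 4.69% of the sense counts in replicate 1 (exact Clopper-Pearson 95% interval 4.68 to 4.71) and 3.49% in replicate 2 (3.47 to 3.50). The reads carry no molecular identifiers, so these intervals cover counting error only. In these bulk libraries, fewer cells that make the array and less array RNA per cell cannot be told apart. Most members were present in both libraries. A level of 10 CPM or more in each was reached by 31 of 39 members (79.5%), against 13.3% of all microRNA genes, and 100 CPM or more by 24 (61.5%), against 8.22%. None was among the 20 most abundant microRNA genes, 5 were among the 50 most abundant and 10 among the 100 most abundant.

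**Figure D1:**
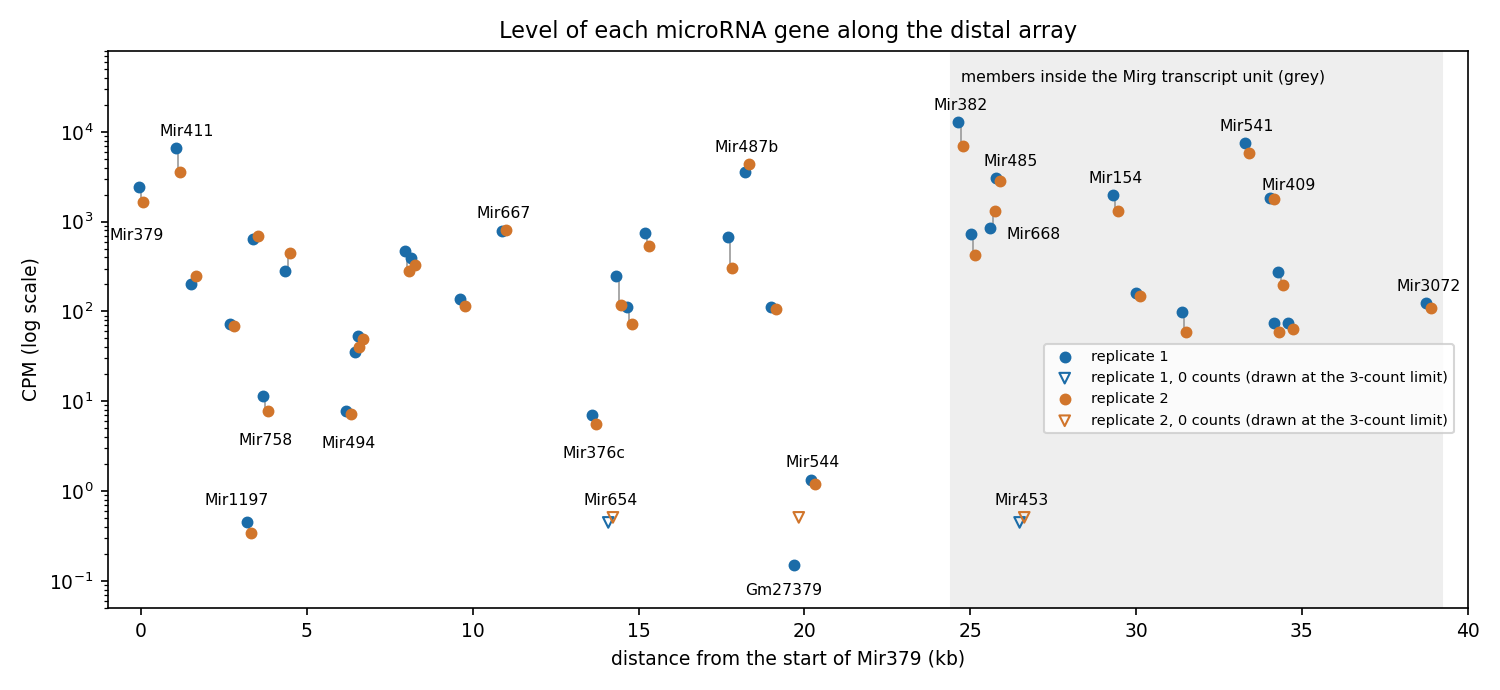
Level of each of the 39 members in CPM (log axis) against the distance of its hairpin from the start of Mir379 in kb, with 1 point per library, drawn slightly apart, and a line joining the 2 libraries. Open triangles stand for 0 counts, drawn at the limit of 3 counts, and grey marks the 14 members inside Mirg. Mir382, Mir541 and Mir411 were highest by mean, and Mir453, with 0 counts, lay between Mir485 and Mir154, which were abundant.

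Levels were uneven along the array. The 14 members inside Mirg held 29423 and 21026 CPM, a mean of 25225 ± 5938 (SD, n = 2), and the 25 before it held 17513 and 13837 CPM, a mean of 15675 ± 2599. The ranges of these sums did not overlap, but this rested on Mir382. Without it the members inside Mirg held 16700 and 14056 CPM, a mean of 15378 ± 1870, and the ranges overlapped. Mir411, the highest member before Mirg, stayed in the sum there. The median level of the tested members was 577 CPM inside Mirg and 225 CPM before it. Whether these medians differ was not tested. Position had little relation to level among the 34 tested members, with a Spearman's rho of 0.09 given as a description, since all members share the same libraries. GC content of the hairpin, 29.1% to 72.3%, gave a rho of 0.22, and its RNAfold energy, -46.9 to -16.6 kcal/mol, gave -0.06.

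A few genes made up most of the array. The 5 leading members held 71.0% of its counts in replicate 1 and 67.5% in replicate 2, and the 10 leading members held 87.8% and 87.1%. The same 10 genes led in both libraries, and they also led when the level was divided by hairpin length. Over the 34 tested members, Spearman's rho of level between the libraries was 0.987. In the order by mean CPM, 21 of 33 neighbouring pairs overlapped between the libraries. Compared within each library, 20 of the 33 pairs kept the same order in both.

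Mir382 led the array, with 85422 counts in replicate 1 and 41130 in replicate 2, which is 12723 and 6970 CPM (mean 9847 ± 4068, SD, n = 2). It alone gave 27.1% of the array's counts in replicate 1 and 20.0% in replicate 2. Mir541 followed with 49790 and 34064 counts, 7416 and 5772 CPM (mean 6594 ± 1162). Mir411 had 44034 and 21145 counts, 6559 and 3583 CPM (mean 5071 ± 2104). The ranges of Mir382 and Mir541 overlapped, as did those of Mir541 and Mir411, although replicate 1 and replicate 2 each put Mir382 first and Mir541 second.

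Mir487b came next by mean and was high in replicate 2, where it stood above Mir411. It had 23846 and 25857 counts, 3552 and 4382 CPM (mean 3967 ± 587). Mir485, whose product is known to act on the synaptic vesicle protein SV2A, had 20598 and 16571 counts, 3068 and 2808 CPM (mean 2938 ± 184). The values of Mir487b and Mir485 did not overlap.

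**Figure D2:**
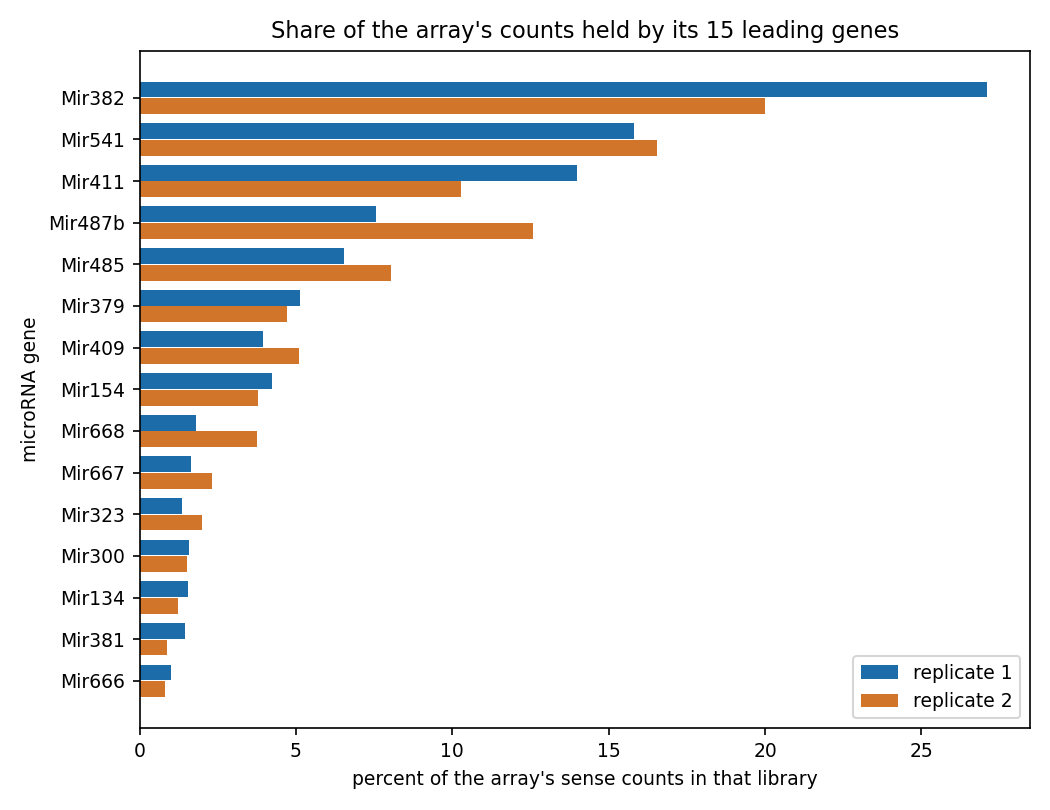
Percent of the array's sense counts held by each of its 15 leading genes, with 1 bar per library. Mir382 held 27.1% in replicate 1 and 20.0% in replicate 2, while Mir487b took 7.57% in replicate 1 and 12.6% in replicate 2.

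Mir379, Mir409 and Mir154 formed the next step, and their ranges overlapped. Mir379, the first hairpin of the array, had 16203 and 9698 counts, 2413 and 1643 CPM (mean 2028 ± 544, SD, n = 2). Mir409 had 12464 and 10508 counts, 1856 and 1781 CPM (mean 1819 ± 53.6). Mir154 had 13338 and 7823 counts, 1987 and 1326 CPM (mean 1656 ± 467). Mir409 was the steadiest of these, with an SD of 53.6 CPM against 544 and 467.

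The other members of the 15 lay between 377 and 1073 CPM by mean. Mir668 had 5641 and 7711 counts, 840 and 1307 CPM (mean 1073 ± 330). Mir667 had 5222 and 4736 counts, 778 and 803 CPM (mean 790 ± 17.5), and Mir323 had 4320 and 4078 counts, 643 and 691 CPM (mean 667 ± 33.7). In these 3 the CPM was higher in replicate 2. Mir300 had 5002 and 3131 counts, 745 and 531 CPM (mean 638 ± 152). Mir134, a regulator of dendritic spine size through Limk1, had 4900 and 2501 counts, 730 and 424 CPM (mean 577 ± 216). Mir381 had 4543 and 1796 counts, 677 and 304 CPM (mean 491 ± 263). Mir666 had 3176 and 1661 counts, 473 and 281 CPM (mean 377 ± 135). In these 4 the CPM was lower in replicate 2, and the ranges of Mir300, Mir134 and Mir381 overlapped.

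Below these, 19 further members had a mean of 10 or more counts, from 365 CPM in Mir329 down to 6.30 CPM in Mir376c. The lowest were Mir758, with 76 and 46 counts, Mir494, with 52 and 42, and Mir376c, with 47 and 33. The remaining 5 members were too low to test. Mir544 had 9 and 7 counts, Mir1197 had 3 and 2, and Gm27379 had 1 and 0. Mir654 and Mir453 had 0 counts in both libraries, which allows a level of up to 0.447 CPM in replicate 1 and 0.508 CPM in replicate 2 (3 counts, counting error only). Neither Mir654 nor Mir453 shared more than 13 bases with another annotated hairpin.

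Between the libraries the array was lower in replicate 2 as a sum and mixed gene by gene. Ratios are log2 of replicate 2 over replicate 1, scaled by TMM, the trimmed-mean method of edgeR, and their standard error (SE) covers counting alone. The summed array had a ratio of -0.27 (SE 0.00409), and -0.13 without Mir382. The median over the 34 tested members was -0.10, against -0.02 over all 466 tested genes. Dividing by total counts alone would shift all ratios down, to medians of -0.26 and -0.18.

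A gene was called lower or higher in replicate 2 if it passed a 2-sided Fisher exact test on its counts against all other sense counts, at 0.05 after Benjamini-Hochberg adjustment across all 466, and kept its sign under TMM, totals and DESeq2 size factors. By this rule 17 of the 34 tested members (50%) were lower, against a background of 35.6% of all tested genes. Higher were 5 members (14.7%), against a background of 18%. A further 10 did not pass, and Mir485 and Mir409 passed with a sign that turned with the scaling. The test compares these libraries and no conditions, and at this depth it calls small ratios. It calls them more readily in abundant genes, and the tested members had a median of 298 CPM, against 37.7 over all tested genes. With an exact binomial test at TMM-scaled library sizes, 14 members were lower and 9 higher, against backgrounds of 29.4% and 24.7%. The lower calls then lost were Mir495, Mir412 and Mir3072, and the higher calls gained were Mir679, Mir667, Mir485 and Mir409. In a further run, hairpins that share 18 or more bases were left out, also from the library totals of the test. Then 16 of 28 members were lower, against 36.7% of 368 genes, and 2 were higher, against 12.8%. The higher calls that remained were Mir329 and Mir668, since Mir299a and Mir487b were removed and Mir323 then did not pass. Among the lower calls Mir411 and Mir376b were removed and Mir410 was gained.

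All 34 tested members stayed within a 2-fold ratio under TMM, against 404 of the 466 tested genes (86.7%). The SD of the ratios was 0.44 over the array and 0.82 over all tested genes. Counting error is larger at low counts, and the tested members were more abundant, with a median of 298 CPM against 37.7. The part of abundance in these contrasts was not tested. Under totals, which lower every ratio, Mir381 and Mir376b went past 2-fold, at -1.15 and -1.07, and under DESeq2 size factors Mir381 did so narrowly, at -1.002.

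**Figure D3:**
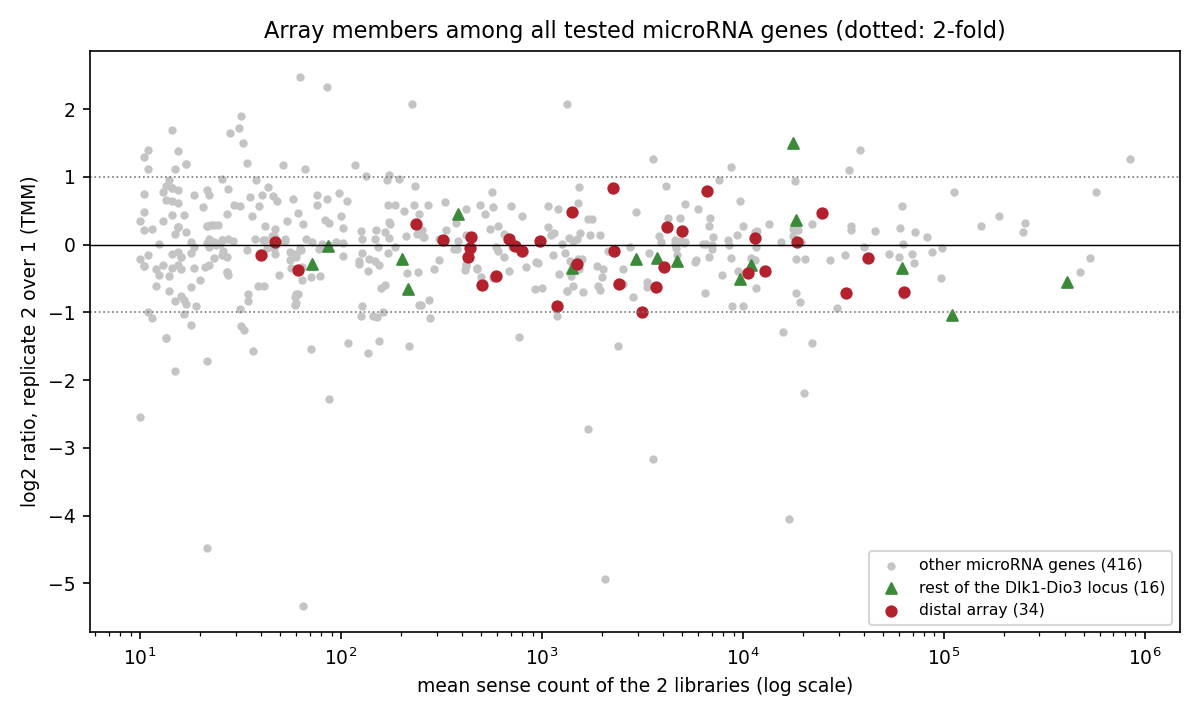
Log2 ratio of replicate 2 over replicate 1 (TMM) against the mean sense count (log axis) for the 466 tested genes, with the 34 array members as red circles and the 16 other tested genes of the locus as green triangles. Dotted lines mark 2-fold, and all red circles lie between them.

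The 17 lower members were Mir379, Mir411, Mir666, Mir543, Mir495, Mir376b, Mir376a, Mir300, Mir381, Mir382, Mir134, Mir154, Mir377, Mir541, Mir412, Mir369 and Mir3072. Mir381 was the lowest, at -0.99, followed by Mir376b at -0.91, from 1670 and 700 counts. Mir382 and Mir411, 2 of the 3 leading members, were both at -0.71, whereas Mir541 was at -0.20. Mir134 was at -0.62, Mir666 at -0.59, Mir154 at -0.42, Mir379 at -0.39 and Mir300 at -0.33. Mir3072, the last of the array, was called with a TMM ratio of only -0.02, because the exact test compares shares of the totals, where its ratio was -0.18 (adjusted p = 0.0348, Fisher exact test).

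The 5 higher members were Mir329, Mir668, Mir299a, Mir487b and Mir323. Mir329, which with Mir134 has been linked to dendrite growth under activity, had 1894 and 2647 counts, a ratio of 0.83 (SE 0.04; adjusted p = 1.11e-53, Fisher exact test). Mir668 was at 0.80 (SE 0.03), Mir299a at 0.48 (SE 0.05), Mir487b at 0.46 (SE 0.01) and Mir323 at 0.26 (SE 0.03). Mir323 was the nearest of these to the threshold, with an adjusted p of 0.00226 in the Fisher exact test. Mir668 lies beside Mir134 and Mir485, which were at -0.62 and 0.03, so near neighbours differed.

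**Figure D4:**
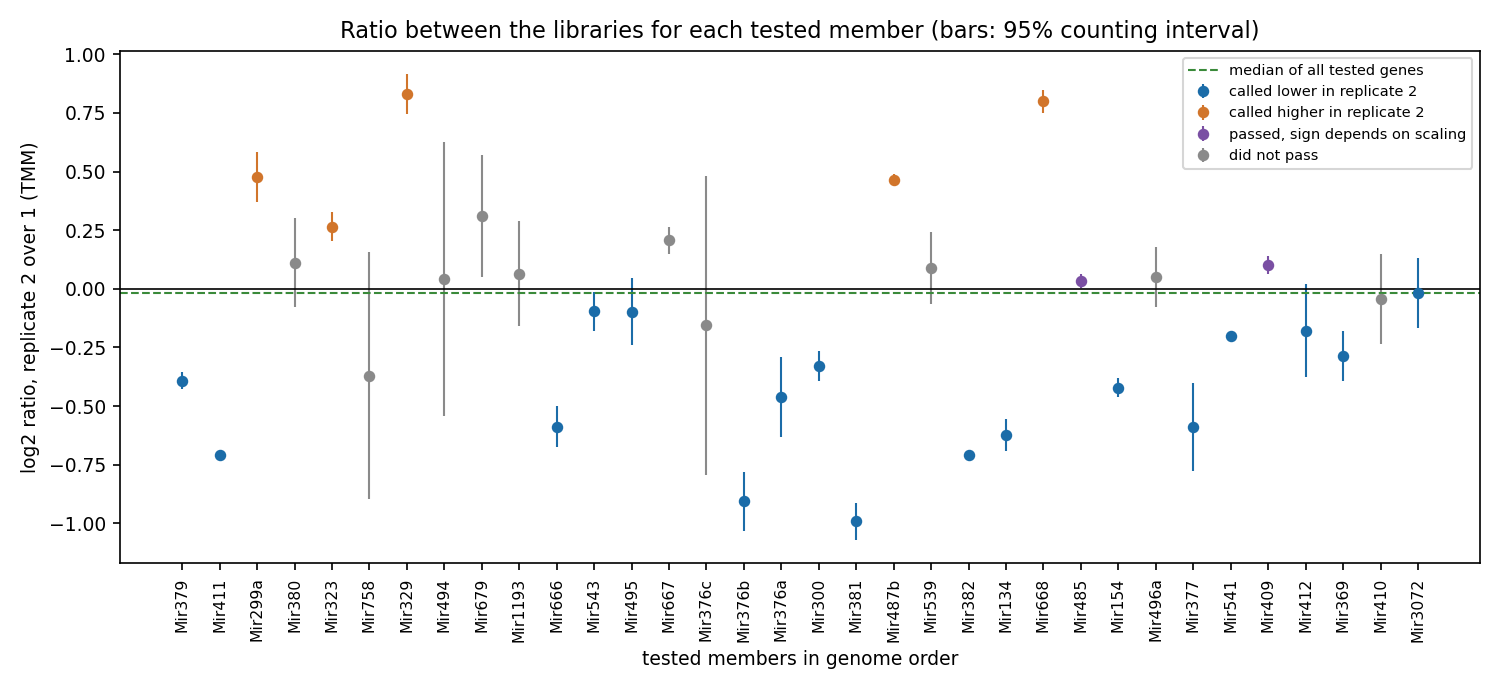
Log2 ratio of replicate 2 over replicate 1 (TMM) for the 34 tested members in genome order, with bars for the 95% counting interval and colours for the call. The dashed line is the median of all tested genes, at -0.02, and members above and below it occur both before and inside Mirg, from 0.83 in Mir329 to -0.99 in Mir381.

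The ratios showed no trend along the array, with a Spearman's rho of -0.14 with position. Genome neighbours among the tested members differed by a median of 0.39, close to the 0.43 over all pairs of members. The 13 tested members inside Mirg had a median ratio of -0.18, with 8 lower and 1 higher, and the 21 before it had a median of -0.10, with 9 lower and 4 higher. Lower calls were thus 61.5% of the members inside Mirg and 42.9% of those before it, and higher calls 7.69% and 19.0%, against 35.6% and 18% of all tested genes. Whether these groups differ was not tested. Hairpin GC content had a rho of 0.27 with the ratio over the array and 0.17 over all 466 tested genes. Its part in the ratios was not tested.

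The members Mir380, Mir758, Mir494, Mir679, Mir1193, Mir667, Mir376c, Mir539, Mir496a and Mir410 did not pass. Mir667 had a ratio of 0.21 (SE 0.03), which totals reduced to 0.05, and an adjusted p of 0.180 in the Fisher exact test. Mir410, the member that gives the array its usual end point, had 497 and 379 counts. Its ratio was -0.04 (SE 0.10), with an adjusted p of 0.0649 in the Fisher exact test. With hairpins sharing 18 or more bases left out, Mir410 passed the same test, at 0.0285. Its own counts were unchanged, but the library totals were smaller, and its ratio under totals went from -0.20 to -0.24. Mir758, Mir494 and Mir376c had SEs of 0.27 to 0.33, so differences well within 2-fold were not detectable for them at this depth.

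By sequence relatives, Mir379 with Mir411, whose 3p arms share a seed, had 8972 and 5227 CPM and both genes were lower. Mir300 with Mir381, whose 3p arms differ by 1 seed base, had 1422 and 835 CPM and both were lower. The Mir376 genes, whose transcripts are known to be edited from A to I in brain, had 368 and 197 CPM in sum. Mir376b and Mir376a were lower, and Mir376c did not pass. Nearly all of this came from Mir376b, at 249 and 119 CPM, and Mir376a, at 112 and 72.7 CPM. Mir376c stood at 7.0 and 5.59 CPM. Mir376b and Mir376c share 31 bases, and reads from that stretch are lost to both, so the counts of both may fall short.

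The 9 genes listed as Mir154 and its relatives (Mir154, Mir323, Mir369, Mir377, Mir409, Mir410, Mir487b, Mir496a and Mir539) did not move together. Their summed level was 8755 and 8756 CPM. This is a log2 ratio of 0.00 under totals, which CPM uses, and of 0.16 under TMM. Of the 9, 3 were lower, 2 higher, 3 did not pass and Mir409 turned with the scaling. Over all tested genes 35.6% were lower and 18% higher, so mixed calls are not particular to this list. The 9 genes held 18.7% of the array's counts in replicate 1 and 25.1% in replicate 2, and Mir487b alone held 7.57% and 12.6%. Their median ratio was 0.05, against -0.10 over the array. The list was set by family and not by the sequence comparisons above. Neither arm of Mir154 shared its seed with a listed mature sequence of another member. Mir382, whose hairpin shares 12 bases with that of Mir154, is not listed and had 12723 and 6970 CPM. The flat sum therefore depends on the list.

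The 5 members best known for a link to neuronal activity, Mir134, Mir485, Mir381, Mir329 and Mir379, had 7170 and 5628 CPM in sum. Mir134, Mir381 and Mir379 were lower, Mir329 was higher and Mir485 turned with the scaling, from 0.03 under TMM to -0.13 under totals. Of all tested genes 35.6% were lower and 18% higher. The median ratio of the 5 members was -0.39. Mir485 alone gave 3068 and 2808 CPM of the sum.

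The rest of the locus held more reads and was lower by more in replicate 2. Its 22 genes had 125481 and 78562 CPM. Of the counts of these genes and the array together, the array made up 27.2% in replicate 1 and 30.7% in replicate 2. Mir127, antisense to the paternally expressed Rtl1, had 535034 and 285843 counts and a ratio of -0.56. Mir770, hosted by Meg3, had 159270 and 60800 counts and a ratio of -1.04, and Mir433 had 76582 and 47450 counts and a ratio of -0.34. In the other direction, Mir370 had 10987 and 24487 counts and a ratio of 1.5. Of the 16 tested genes there 11 (68.8%) were lower, against 35.6% of all tested genes, and 3 (18.8%) higher, against 18%, and their median ratio was -0.26. The difference of these medians from the array's was not tested.

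Counts on the opposite strand were nearly absent at the array, with 2 in each library over all members. In the table without strand, Mir299a, Mir380, Mir376a, Mir539 and Mir409 had 0 counts, and each of them lies opposite another annotated microRNA gene. Their values here are from the sense column only.

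Markers of the cell types that hippocampal tissue can hold were read in the same libraries. Members of most lists moved both ways, so each sum is given with its calls in replicate 2. Neuron markers, the 8 genes of Mir124a, Mir128, Mir132 and Mir138, summed to 26726 and 27721 CPM. Mir132, Mir138-1 and Mir138-2 were lower, and Mir128-1 and Mir128-2 were higher. The counts of the Mir124a genes were too low to test, with Mir124a-2 at 0 in both libraries. Mir124a, Mir128 and Mir138 were each listed as numbered gene copies. Any read that fits more than a single copy is lost to all of them, so these counts and the neuron sum may fall short. The low Mir124a counts therefore do not show that its product was scarce, and its level was not tested. Astrocyte markers summed to 48378 and 55777 CPM, with Mir29a lower and Mir23b and Mir125a higher. Oligodendrocyte markers summed to 7078 and 3193 CPM, with Mir219a-2 and Mir338 lower and Mir219a-1 not passing. Mir219a was also listed as numbered gene copies, so its counts and this sum may fall short too. The endothelial marker Mir126a, at 6191 and 2897 CPM, was lower, as were both erythrocyte markers, which summed to 72.2 and 31.7 CPM. Microglia and leukocyte markers summed to 1367 and 1857 CPM, where Mir150 was higher and Mir142, Mir155 and Mir223 were lower. Choroid plexus markers summed to 1565 and 1667 CPM, with Mir449a lower and Mir204 higher. Pituitary and epithelial markers summed to 2466 and 1564 CPM, where Mir7b and Mir375 were lower and Mir200a and Mir200b were higher. The part of these cell types in the array's ratio was not tested.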

How the data were processed

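The authors deposited raw whole-number counts per microRNA gene, mapped to mm10 with GENCODE M21, per the notes they deposited beside each table. Which aligner and counter they used is not given in the sources used here. Every table has 3 count columns without headings, which by their values are counts without strand, on the sense strand and on the opposite strand, plus read classes that were left out of library sizes. All 2202 identifiers matched GENCODE M21. Array members and all lists were chosen with earlier results of these data known.

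From the sense counts, CPM, log2 ratios (0.5 counts added; TMM of edgeR 4.0.16 in R 4.3.3, with totals and DESeq2 1.42.0 size factors as alternatives) and Fisher exact tests over genes averaging at least 10 counts were computed. Intervals are exact Clopper-Pearson at 95%, and a count of 0 was given a limit of 3 counts. Hairpins of GENCODE M21 were folded with RNAfold 2.7.2 and searched, on both strands, for shared stretches. Mature sequences came from RefSeq (GRCm38.p6). Values were given in full for the 15 members with the highest mean CPM, members called with a ratio of 1 or more in size, members with 0 counts in a library, and the 3 highest other genes of the locus. Mir370 and other members whose values are printed were chosen after these were seen. The binomial test, the level inside Mirg without Mir382, the call by TMM sign alone and the sequence words were also chosen after seeing the data. The Fisher exact test and the sign of the ratio under totals were tried on simulated Poisson counts. Those vary less between libraries than these data do. The other scalings, the rule of equal sign and the binomial test were not simulated.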

Additional observations from a re-analysis of the deposited data

How the results depend on the processing

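Scaling moved the ratios most. Under totals the array's median log2 ratio was -0.26 and that of its sum -0.43, and under DESeq2 size factors they were -0.11 and -0.28. For the rest of the locus these were -0.43 and -0.68 under totals, and -0.27 and -0.52 under DESeq2 size factors. Mir485 and Mir409 turned to -0.13 and -0.0601 under totals. With counts without strand the array's median and sum were -0.16 and -0.30, and those of the rest of the locus -0.27 and -0.52. With no filter on low counts the median of the rest of the locus was -0.28, and that over all genes turned to 0.0077. With hairpins that share 18 or more bases left out, the array's median and sum were -0.0598 and -0.28, 2 members were higher, the sum of the rest of the locus had a ratio of -0.50, and its level, over the smaller total, was 155904 CPM. Without Mir382 the array's sum had a ratio of -0.13, and the members inside Mirg a level of 15378 CPM. The exact binomial test called 9 members higher. Causes of these moves were not tested. The array's summed level ranged from 34863 to 46936 CPM when either replicate was left out. No paired analysis was possible because there is 1 group of 2 libraries. Depth limited the ratios of low members most, with an SE of 0.33 for Mir376c (47 and 33 counts) and 0.13 for Mir679 (240 and 234 counts).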
